A study of Sus scrofa with 6 samples.

Results

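The ligands and receptors of the vascular endothelial growth factor (VEGF) and angiopoietin pathways were examined in the ventricular myocardium of minipigs under chronic pressure overload. The set is 10 gene names (the ligands VEGFA, VEGFB, VEGFC, ANGPT1 and ANGPT2, the receptors KDR, FLT1, FLT4 and TEK, and the co-receptor NRP1). It was chosen by name and not by a threshold on measured values, but with earlier results of these data known. Of the 10 genes, 8 are listed by name among the 13288 genes of the deposited table. VEGFB and ANGPT1 are not listed by name or by their gene identifiers, so both are not analysed here as genes. The sham group was 3 male Tibetan minipigs that underwent thoracotomy without aortic constriction, named here sham replicates 1 to 3. The DAC group was 3 male Tibetan minipigs with descending aortic constriction, in which sutures narrowed the aorta beyond the heart, named DAC replicates 4 to 6. Tissue of both groups was collected at week 12 after surgery, and the age of the animals is not given in the sources used here. Each library came from 1 minipig and from a piece of ventricle that holds all of its cell types. In such bulk tissue, fewer cells of a type and less RNA per cell cannot be told apart.

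VEGFA is the main growth signal for blood vessels and acts mostly on endothelial cells through KDR, the receptor also known as VEGFR2. FLT1, also known as VEGFR1, binds VEGFA tightly but signals weakly, and its membrane and soluble forms act as a decoy that limits how much VEGFA reaches KDR. VEGFC and its receptor FLT4 (VEGFR3) act mainly on lymphatic vessels, NRP1 is a co-receptor that aids the binding of VEGFA to KDR, and the angiopoietins act through TEK (TIE2), where ANGPT1 steadies vessels and ANGPT2 usually opposes it. In the heart, cardiomyocytes are a major source of VEGFA, while its receptors are found mainly on the endothelium of the dense capillary bed.

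The main pattern was in the 2 receptors of VEGFA. FLT1 was lower and KDR was higher in the DAC myocardium, though the groups overlapped for KDR alone and for FLT1 set against endothelial markers. The ratio of KDR to FLT1 was 2.15-fold higher, with no overlap between the groups. Its exact permutation P of 0.10 is the smallest that 3 against 3 allows. The ratio joins the 2 differences in 1 value and is not separate support for them. The share of other gene pairs whose ratios do not overlap was not computed. VEGFA itself, NRP1, TEK, FLT4 and VEGFC did not pass the test, and ANGPT2 was too low to be included in it. The values are FPKM, fragment counts that the authors scaled for transcript length and for sequencing depth, so levels can be compared between genes. For the test, the log2 of FPKM plus 1 was compared between the groups with limma over all 11029 genes that had at least 1 FPKM in at least 3 samples. A gene was called up- or downregulated at an unadjusted P under 0.05, with no minimum on the size of its change. Of the 8 genes, 7 passed the filter. Among them 1 was upregulated, against 3.25% of all genes tested, and 1 was downregulated, against 5.27% of all genes tested. Neither had an adjusted P under 0.05 by limma with the Benjamini-Hochberg method, and neither did any other gene (0 of 11029, of which 939 had an unadjusted P under 0.05).

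The 8 genes covered a wide range of levels. VEGFA was highest, with a mean of 112 FPKM over the 6 samples, and was above 97.9% of the listed genes. FLT1 followed at 27.9 FPKM, NRP1 at 25.4, KDR at 16.0 and TEK at 7.88 FPKM. FLT4 at 2.50 FPKM and VEGFC at 2.17 FPKM were low, and ANGPT2 at 0.766 FPKM was under 1 FPKM in all 6 samples. VEGFA exceeded FLT1 in all 6 samples, and KDR exceeded TEK in all 6. FLT1 and NRP1 could not be ranked, because FLT1 was higher in 4 of the 6 samples and their ranges overlapped in both groups. FLT4 and VEGFC could not be ranked either, with FLT4 higher in 3 of the 6 samples.

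**Figure D1:**
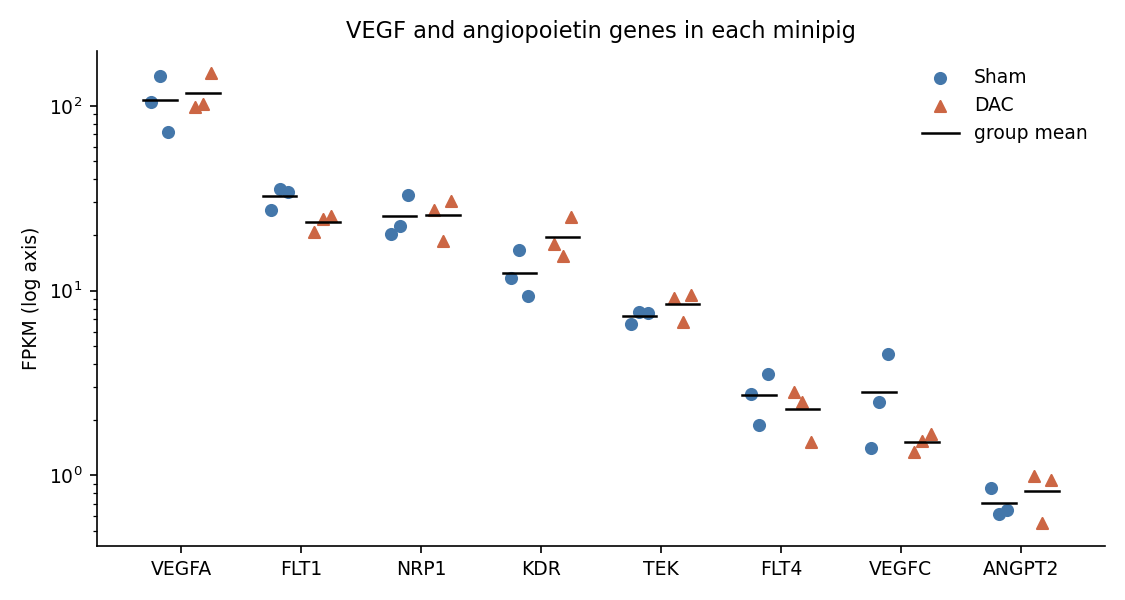
FPKM of the 8 listed genes (log axis) in the 3 sham minipigs (circles) and the 3 DAC minipigs (triangles), with lines at the group means. The 3 DAC values of FLT1 lie under the 3 sham values, while the values of the other genes overlap between the groups.

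FLT1 (ENSSSCG00000009320, minus strand, chr11:5620700-5795264 on susScr11) was at 27.2, 35.5 and 34.3 FPKM in the sham minipigs. In the DAC minipigs it was at 20.7, 24.3 and 25.4 FPKM. Every DAC value was under every sham value, and FLT1 was the 1 gene among the 7 tested whose groups did not overlap, against 14.9% of all genes tested. The mean fell from 32.4 ± 4.48 to 23.5 ± 2.49 FPKM (SD, n = 3 each), a log2 fold change of -0.44 with a 95% interval from -0.78 to -0.11 (limma, P = 0.0154, adjusted P = 0.522, exact permutation P = 0.10). The last value is the smallest that a two-sided permutation of 3 against 3 allows. Without sham replicate 2 the log2 fold change of FLT1 was -0.37 and without sham replicate 3 it was -0.40, and the call was lost in both cases. The table has 1 value for the gene, so the soluble and the membrane form of FLT1 were not separated.

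KDR (ENSSSCG00000008844, minus strand, chr8:41809116-41856339) was at 11.7, 16.6 and 9.36 FPKM in the sham minipigs. The DAC minipigs were at 17.95, 15.3 and 24.97 FPKM. Of the 3 DAC values, 2 were above all sham values and DAC replicate 5 was under sham replicate 2, so the groups overlapped. The mean rose from 12.5 ± 3.68 to 19.4 ± 4.98 FPKM (SD, n = 3 each), a log2 fold change of 0.60 with a 95% interval from 0.038 to 1.17 (limma, P = 0.0396, adjusted P = 0.584, exact permutation P = 0.20). The call was lost when sham replicate 1 (log2 fold change 0.57), sham replicate 3 (0.43), DAC replicate 4 (0.64) or DAC replicate 6 (0.41) was left out. It was also lost when the variance of KDR was estimated from its own values alone.

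**Figure D2:**
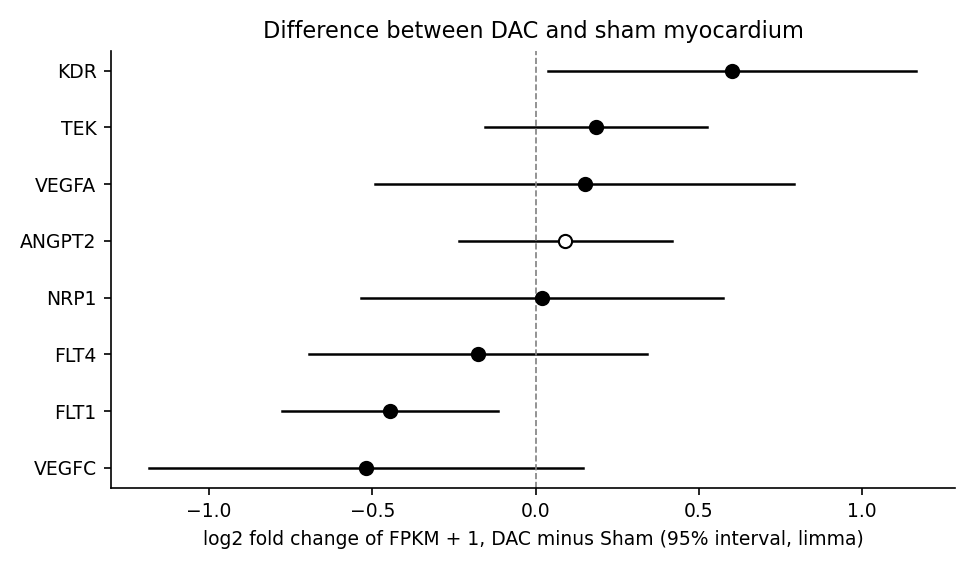
Log2 fold change of FPKM plus 1 between the DAC and the sham group for each gene, with the 95% interval from limma. The intervals of KDR (above 0) and FLT1 (under 0) do not reach 0, and the open point is ANGPT2, which was fitted only without the filter on FPKM.

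The 2 receptors were set against each other within each minipig, since such a ratio does not depend on how a sample was scaled. The ratio of KDR to FLT1 was 0.428, 0.466 and 0.273 in the sham minipigs. It was 0.869, 0.632 and 0.982 in the DAC minipigs, so that the lowest DAC value was above the highest sham value. The difference in the mean log2 ratio was 1.10, with an exact permutation P of 0.10. With any 1 of the 6 samples left out, this difference was between 0.87 and 1.29. The ratio of VEGFA to FLT1 was 3.86, 4.07 and 2.11 in the sham minipigs and 4.78, 4.19 and 5.91 in the DAC minipigs, where sham replicate 3 was the lowest. These groups were only narrowly apart, with 4.07 in sham replicate 2 against 4.19 in DAC replicate 5. Both ratios have FLT1 as the denominator, and VEGFA itself overlapped between the groups, so the second ratio is not independent of the first. The difference in the mean log2 ratio of VEGFA to FLT1 was 0.61 (exact permutation P = 0.10). It was 0.31 without sham replicate 3.

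**Figure D3:**
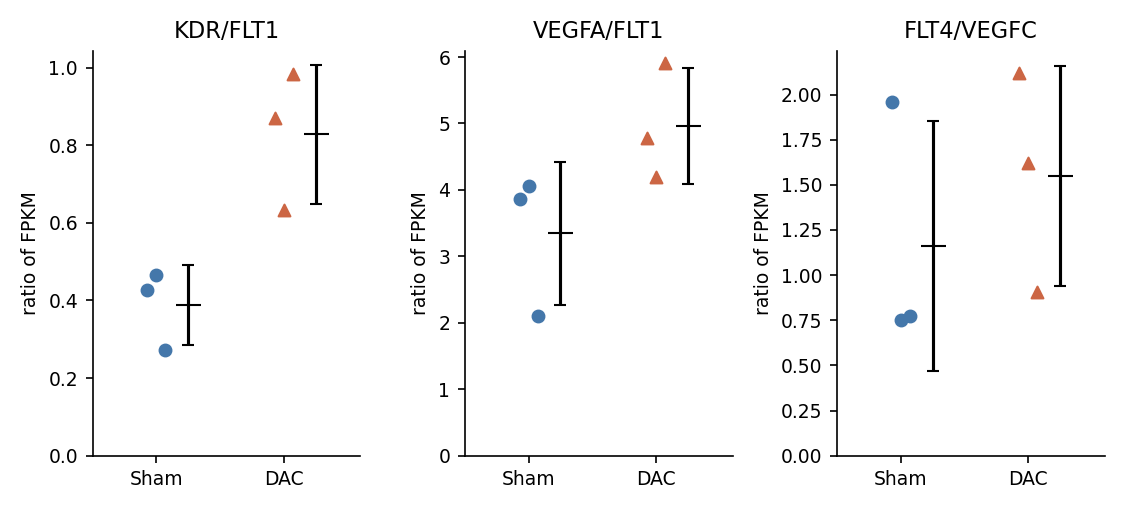
Ratio of FPKM within each minipig for KDR to FLT1, VEGFA to FLT1 and FLT4 to VEGFC, with sham as circles, DAC as triangles, and the mean with its SD beside the points. The groups are apart for KDR to FLT1, only narrowly apart for VEGFA to FLT1, and overlap for FLT4 to VEGFC.

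The sum of the 3 VEGF receptors overlapped between the groups, and its make-up did not, in a summary chosen after the values were seen. FLT4 held only 2.93% to 7.47% of this sum. The shares of FLT1 and KDR thus largely restate the ratio of KDR to FLT1 and are not a further result. FLT1, KDR and FLT4 together reached 41.7, 54.0 and 47.2 FPKM in the sham minipigs and 41.5, 42.1 and 51.9 FPKM in the DAC minipigs. FLT1 held 65.4%, 65.8% and 72.7% of this sum in the sham minipigs, and 49.8%, 57.6% and 49.0% in the DAC minipigs. KDR held 19.8% to 30.7% in the sham minipigs and 36.4% to 48.1% in the DAC minipigs. In DAC replicate 6, the 2 receptors were almost level, whereas in sham replicate 3 FLT1 exceeded KDR most.

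**Figure D4:**
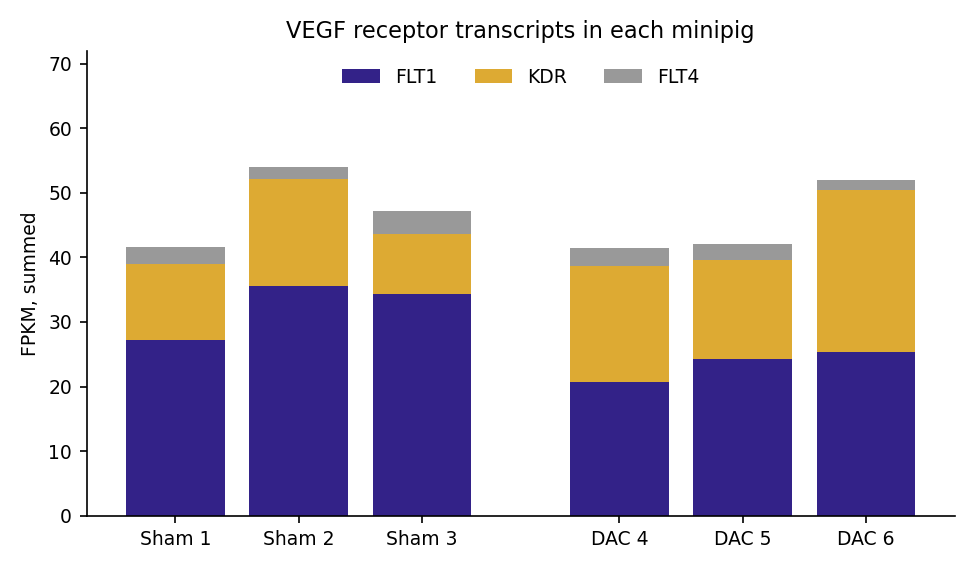
Stacked FPKM of FLT1, KDR and FLT4 in each of the 6 minipigs. The height of the bars overlaps between the groups, and the FLT1 part is smaller and the KDR part a larger share in the 3 DAC minipigs. The shares largely restate the ratio of KDR to FLT1.

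VEGFA (ENSSSCG00000001695, plus strand, chr7:38746052-38761038) was at 105, 144 and 72.4 FPKM in the sham minipigs. In the DAC minipigs it was at 98.8, 102 and 150 FPKM. The highest and the lowest sham value differed 1.996-fold, and 2 of the 3 DAC values lay inside the sham range. The log2 fold change was 0.15 with a 95% interval from -0.49 to 0.79 (limma, P = 0.598, adjusted P = 0.891, exact permutation P = 0.80). Changes of either sign within that interval were not separable from 0 with these 6 minipigs. The sign turned without sham replicate 3 (-0.10) and without DAC replicate 6 (-0.042).

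VEGFB, a ligand of FLT1 that is abundant in heart muscle, is not listed by name. A gene without a symbol (ENSSSCG00000013038, minus strand, chr2:7872875-7880587) covers 99.9% of the position of VEGFB and 92.6% of that of its neighbour DNAJC4 in the RefSeq annotation of Sscrofa11.1. This row was at 69.8, 81.8 and 67.8 FPKM in the sham minipigs and at 78.5, 61.6 and 66.9 FPKM in the DAC minipigs. The groups overlapped, with a log2 fold change of -0.086 and a 95% interval from -0.40 to 0.22 (limma, adjusted P = 0.871). How much of its signal is VEGFB and how much is DNAJC4 cannot be told apart in this table. For ANGPT1, no row overlaps the RefSeq position, and 3 of the ratios planned with VEGFB or ANGPT1 were not computed.

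NRP1 (ENSSSCG00000011102, minus strand, chr10:56280363-56430777), the co-receptor, was at 20.3, 22.4 and 32.9 FPKM in the sham minipigs. The DAC minipigs were at 27.5, 18.7 and 30.6 FPKM, and the ranges nearly coincided. The log2 fold change of NRP1 was 0.020 with a 95% interval from -0.53 to 0.57 (limma, P = 0.933, adjusted P = 0.985, exact permutation P = 1.0), and its sign changed with the sample left out.

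VEGFC (ENSSSCG00000015770, minus strand, chr15:39037893-39133041), the lymphatic ligand, was at 1.40, 2.50 and 4.55 FPKM in the sham minipigs. In the DAC minipigs it was at 1.34, 1.54 and 1.68 FPKM. The sham values spread 3.24-fold and the DAC values 1.25-fold, and 2 of the 3 DAC values were above sham replicate 1. The log2 fold change was -0.52 with a 95% interval from -1.18 to 0.15 (limma, P = 0.108, adjusted P = 0.643, exact permutation P = 0.30). It was -0.81 and passed the unadjusted threshold without sham replicate 1, and was -0.21 without sham replicate 3.

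FLT4 (ENSSSCG00000014007, plus strand, chr2:78076080-78115137), the receptor of VEGFC, was at 2.75, 1.87 and 3.53 FPKM in the sham minipigs and at 2.84, 2.50 and 1.52 FPKM in the DAC minipigs. Only DAC replicate 6 lay under the sham range, and the log2 fold change was -0.18 with a 95% interval from -0.69 to 0.34 (limma, P = 0.450, adjusted P = 0.839, exact permutation P = 0.60). The ratio of FLT4 to VEGFC was 1.96, 0.749 and 0.774 in the sham minipigs and 2.12, 1.62 and 0.906 in the DAC minipigs. Those groups overlapped (difference in mean log2 ratio 0.48, exact permutation P = 0.40). The difference was 0.22 without DAC replicate 4 and 0.94 without sham replicate 1, the lowest and highest values with 1 sample left out.

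TEK (ENSSSCG00000005122, minus strand, chr1:195937394-196051957), the receptor of the angiopoietins, was at 6.58, 7.70 and 7.55 FPKM in the sham minipigs. It was at 9.16, 6.79 and 9.50 FPKM in the DAC minipigs, with DAC replicate 5 inside the sham range and the other two above it. The log2 fold change of TEK was 0.19 with a 95% interval from -0.15 to 0.53 (limma, P = 0.237, adjusted P = 0.726, exact permutation P = 0.30), and it was 0.32, past the unadjusted threshold, without DAC replicate 5. ANGPT2 (ENSSSCG00000015753, minus strand, chr15:37544707-37599041) was at 0.855, 0.620 and 0.646 FPKM in the sham minipigs and at 0.987, 0.551 and 0.940 FPKM in the DAC minipigs. The groups overlapped, and in a fit without the filter its log2 fold change was 0.091 with a 95% interval from -0.23 to 0.42 (limma, P = 0.531, adjusted P = 0.872, exact permutation P = 0.50). ANGPT2 lies within the span of MCPH1, a gene on the opposite strand, and the sources used here do not say whether strand was used in counting.

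Since the receptors are mainly endothelial, markers of that cell type were read beside them. For this list and the lists below, the shares over all genes tested were 3.25% upregulated and 5.27% downregulated. The 13 pan-endothelial markers were all in the table, and their summed level was 238 to 324 FPKM in the sham minipigs and 203 to 283 FPKM in the DAC minipigs. Of these, 3 were downregulated and 1 was upregulated, the mean was lower after DAC for 10, and their median log2 fold change was -0.22, while the median over all genes tested was -0.016. With 1 sample left out, 2 to 5 were downregulated (5 without sham replicate 1, 2 without DAC replicate 5) and 0 to 2 were upregulated. The tight junction protein CLDN5 was at 8.30, 12.3 and 18.8 FPKM in the sham and at 4.14, 3.78 and 6.88 FPKM in the DAC minipigs, a log2 fold change of -1.22 (limma, adjusted P = 0.482). ROBO4, a receptor that steadies vessels, and VWF, the clotting factor stored in endothelial cells, were also downregulated, with log2 fold changes of -0.75 and -0.49. EMCN, a sialomucin of capillary and venous endothelium, was upregulated with a log2 fold change of 0.39. The call of EMCN was lost without sham replicate 1, sham replicate 3 or DAC replicate 6 and with its own variance (log2 fold change 0.235 to 0.47 with 1 sample left out), and that of ROBO4 without DAC replicate 5 and with its own variance. PECAM1 and CDH5, which define the cell type, had log2 fold changes of -0.26 and -0.22 and did not pass the test (limma, adjusted P of 0.791 and 0.808).

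Each gene was then set against the mean log2 level of the 13 markers in the same minipig. This marker mean differed between DAC and sham by -0.25, with overlapping groups (exact permutation P = 0.20). Subtracting it moved the difference of every gene upward by the same amount, so that shift is not a property of any 1 gene. KDR minus this mean was -0.29, -0.26 and -0.95 in the sham minipigs and 0.37, 0.23 and 0.45 in the DAC minipigs. The groups were apart, with a difference of 0.85 (exact permutation P = 0.10). TEK minus the marker mean was -1.03, -1.27 and -1.23 in the sham minipigs and -0.53, -0.84 and -0.86 in the DAC minipigs, a difference of 0.44 without overlap (exact permutation P = 0.10). With PECAM1 and CDH5 as the markers in place of all 13, the difference was 0.84 for KDR (exact permutation P = 0.10) and 0.43 for TEK (exact permutation P = 0.30). FLT1 minus the marker mean was 0.87, 0.80 and 0.82 in the sham minipigs and 0.56, 0.86 and 0.47 in the DAC minipigs. Here DAC replicate 5 lay within the sham range, and the difference was -0.19 (exact permutation P = 0.30). With 1 sample left out it lay between -0.31 (DAC replicate 5 left out) and -0.12 (DAC replicate 6 left out). The other 5 genes overlapped between the groups on this scale, with exact permutation P from 0.30 to 0.60.

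The rest of the pathway was read from lists of other ligands and regulators, of downstream signaling and of genes that VEGF induces. Of 13 tested ligands, co-receptors and regulators, 1 was upregulated and 2 were downregulated, and the median log2 fold change was 0.031. ANGPTL4, a secreted inhibitor of lipoprotein lipase, was at 9.75, 12.8 and 11.0 FPKM in the sham and at 6.005, 4.50 and 6.40 FPKM in the DAC minipigs. Its groups were far apart, with a log2 fold change of -0.88 (limma, adjusted P = 0.335). SEMA3F, a semaphorin that binds the neuropilins, was downregulated with a log2 fold change of -0.55, a call that was lost with its own variance. ANGPTL2, a secreted angiopoietin-like protein that does not bind TEK, was at 8.51, 7.80 and 9.58 FPKM in the sham and at 20.2, 8.79 and 15.4 FPKM in the DAC minipigs, a log2 fold change of 0.65 (limma, adjusted P = 0.585) that lost its call in 5 of the 6 fits with 1 sample left out (all but that without DAC replicate 5; 0.40 to 0.96). TIE1, the partner of TEK, had a log2 fold change of -0.14, PTPRB, the phosphatase of TEK, had -0.13, and the ligands VEGFD and PGF had -0.12 and 0.076, none of which passed the test.

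Of 25 tested genes of signaling downstream of the receptors, 0 were upregulated and 3 were downregulated by limma at an unadjusted P under 0.05. GRB2, an adaptor between receptor tyrosine kinases and RAS, was at 22.5, 21.2 and 23.6 FPKM in the sham and at 16.8, 15.8 and 16.0 FPKM in the DAC minipigs, a log2 fold change of -0.44 (limma, adjusted P = 0.419). TNIP2, an adaptor of NF-κB and ERK signaling, had a log2 fold change of -0.63. NOS3, the endothelial nitric oxide synthase, was at 7.29, 11.5 and 16.6 FPKM in the sham and at 6.31, 7.15 and 7.56 FPKM in the DAC minipigs, with a log2 fold change of -0.61 (limma, adjusted P = 0.585). Its groups overlapped, and its call was lost in 10 of its 14 alternative fits, among them those without sham replicate 2 or 3 and without any 1 of the DAC replicates.

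Of 11 tested genes that VEGF induces in endothelial cells, 2 were upregulated and 0 were downregulated by limma at an unadjusted P under 0.05, with a median log2 fold change of 0.040. With 1 sample left out, 3 were upregulated without sham replicate 1 or DAC replicate 5, and 1 in the other 4 fits. RCAN1, an inhibitor of calcineurin that is also made by cardiomyocytes, was at 13.7, 14.4 and 11.6 FPKM in the sham and at 58.8, 18.9 and 45.0 FPKM in the DAC minipigs. Its log2 fold change of 1.42 (limma, adjusted P = 0.488) was 1.09 to 1.89 with 1 sample left out. HLX, a homeobox factor, had a log2 fold change of 0.44, and its call was lost without sham replicate 2, sham replicate 3, DAC replicate 4 or DAC replicate 6 (0.29 to 0.59 with 1 sample left out) and with its own variance. DLL4, the Notch ligand of sprouting tip cells, and PDGFB, which recruits pericytes, had log2 fold changes of 0.040 and 0.079 and did not pass the test. ESM1 and ANGPT4 did not pass the filter, and both are named here after their values were seen. ANGPTL1, ADAMTS3 and EGR3 of the same lists did not pass it either, and their groups overlapped. From sham to DAC, the mean of ANGPTL1 went from 0.33 to 0.43 FPKM. That of ADAMTS3 went from 0.53 to 0.46 FPKM and that of EGR3 from 0.92 to 0.52 FPKM. ESM1, a tip cell gene, was at 0.114, 0.203 and 0.0891 FPKM in the sham and at 0.665, 0.366 and 0.626 FPKM in the DAC minipigs. ANGPT4, a further ligand of TEK, was at 0.352, 0.148 and 0.238 FPKM in the sham and at 0.705, 0.724 and 0.976 FPKM in the DAC minipigs.

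**Figure D5:**
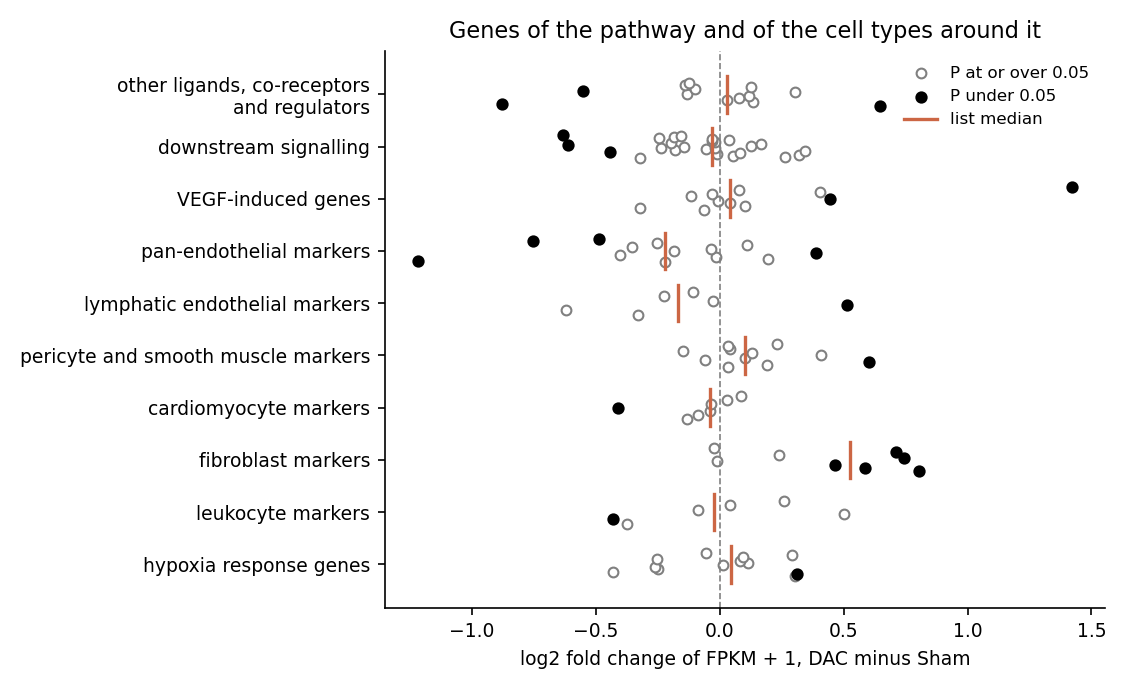
Log2 fold change of FPKM plus 1 between the DAC and the sham group for each tested gene of the 10 lists, with filled points for an unadjusted P under 0.05 by limma and a line at the median of each list. Fibroblast markers have the highest median (0.53) and pan-endothelial markers the lowest (-0.22).

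Hypoxia drives VEGFA through the HIF factors, and of 12 tested genes of this response 1 was upregulated and 0 were downregulated by limma at an unadjusted P under 0.05. ARNT, the shared partner of the HIF factors, was at 11.99, 11.6 and 12.4 FPKM in the sham and at 13.9, 15.9 and 15.5 FPKM in the DAC minipigs, a log2 fold change of 0.31 (limma, adjusted P = 0.522) that lost its call without sham replicate 2. HIF1A and EPAS1 had log2 fold changes of 0.11 and 0.014. PDK1, a kinase that limits pyruvate oxidation and had the next smallest P, had 0.29 (limma, adjusted P = 0.639). The list did not lean one way: its median log2 fold change was 0.047, and 7 genes rose while 5 fell. Those that fell were BNIP3 (-0.43), EGLN3 (-0.26), LDHA (-0.255), EGLN1 (-0.25) and PFKFB4 (-0.054), none of which passed the test. Several of the named genes overlap another gene in the coordinates of the table, so without a statement on strand their reads could be shared. These are ARNT (CTSS), ANGPTL1 (RALGPS2), ANGPTL2 (RALGPS1), PECAM1 (DDX5 and POLG2), MCAM (CBL), COL3A1 (COL5A2), and CNN1 and POSTN, each with a gene without a symbol. SLC2A1 and VHL were not analysed here.

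Markers of the other cell types were read in the same way. Of 6 tested lymphatic markers, 5 fell on average after DAC, and the median log2 fold change was -0.168. PDPN alone rose and was upregulated with a log2 fold change of 0.51, without overlap. LYVE1 had -0.62 (limma, adjusted P = 0.596). PROX1, which cardiomyocytes also express, was at 58.1 to 67.0 FPKM over the 6 samples. Of 8 fibroblast markers, 5 were upregulated (COL1A1, COL1A2, COL3A1, LUM and POSTN, with log2 fold changes from 0.46 to 0.81), and their summed level was 482 to 555 FPKM in the sham and 688 to 780 FPKM in the DAC minipigs. Of 11 pericyte and smooth muscle markers, CNN1 was upregulated (0.60, a call lost without sham replicate 1, sham replicate 2 or DAC replicate 5 and with its own variance) and MCAM had 0.41 (limma, adjusted P = 0.656). Of 7 cardiomyocyte markers, RYR2 was downregulated (-0.41, a call lost in 7 of 14 alternative fits: without sham replicate 1, sham replicate 3, DAC replicate 5 or DAC replicate 6, with quantile normalization, with its own variance and with mitochondrially encoded genes left out) and ACTN2 had -0.13 (limma, adjusted P = 0.714), and of 6 leukocyte markers CD163 was downregulated (-0.43) and CD68 had 0.50 (limma, adjusted P = 0.629). All 7 cardiomyocyte markers in the table were at 230.2 FPKM or more in every sample, and PLN, TTN and MB were not analysed here. Mitochondrially encoded genes held 24.01% to 25.3% of the summed FPKM in the sham and 27.1% to 32.8% in the DAC minipigs, highest in DAC replicate 5. With those genes left out and the rest rescaled, KDR had a log2 fold change of 0.64 and FLT1 of -0.40, and both kept their calls. The part of the cell makeup in the results of KDR and FLT1 was not tested beyond the comparison with the endothelial markers.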

How the data were processed

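RNA of ventricular tissue from 3 sham and 3 DAC minipigs was made into libraries with a NEBNext Ultra kit, and paired reads were taken on a HiSeq machine. The authors deposited 1 table of FPKM per gene and minipig, and HISAT2 and susScr11 are named in the submitters' processing notes. The counting program, annotation release and use of strand are not given in the sources used here. Every gene in the table reaches at least 0.50 FPKM in 1 sample. The depth is unknown: the most frequent ratio between 2 samples was shared by 6 of at least 6520 genes under 5 FPKM, so no steps of whole reads were seen. The precision rests on the spread between minipigs, each of which gave 1 library.

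Genes were taken by the symbol of the table, and 520 without one were named from a table of identifiers. The log2 of FPKM plus 1 was compared with limma 3.58.1 in R 4.3.3, with a variance trend, over genes of at least 1 FPKM in at least 3 of 6 samples, and P was adjusted over all of these. A fold change on this scale understates the change of low genes. Ratios and levels per endothelial marker were compared by an exact two-sided permutation test over samples (scipy 1.17.1), and figures used matplotlib 3.10.9. The members and the 10 lists of 133 genes were chosen with earlier results of these data known. Named are all members and, of each list, the genes called at an unadjusted P under 0.05 or, with fewer than 2 called, the 2 with the smallest P. Other genes named were chosen after their values were seen. On simulated data of 11029 genes, 189 of 200 genes with a log2 change of 1 were called. So were 5.3% of the unchanged genes, while 8.51% of all genes tested were called in the real data. The changed genes were drawn from above a minimum mean level, under which FLT4 and VEGFC lie. Smaller changes, such as those of KDR and FLT1, were not simulated. The alternatives were a pseudocount of 0.1, quantile normalization, median scaling, no filter, a minimum of 5 FPKM, each gene's own variance, sample weights and each sample left out, and, chosen after seeing the data, leaving out mitochondrially encoded genes. No sequence is shown, as none was used here.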

Additional observations from a re-analysis of the deposited data

How the results depend on the processing

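FLT1 kept its call in all alternatives except without sham replicate 2 or 3. KDR kept its call under both other scalings, sample weights, the other filters and the other pseudocount but not with its own variance (log2 fold change 0.60). KDR also lost it without sham replicate 1, sham replicate 3, DAC replicate 4 or DAC replicate 6. With 1 sample left out in turn, the log2 fold change was 0.41 to 0.81 for KDR, -0.56 to -0.36 for FLT1, -0.81 to -0.21 for VEGFC, 0.11 to 0.32 for TEK, -0.10 to 0.39 for VEGFA, -0.12 to 0.22 for NRP1 and -0.35 to 0.0037 for FLT4. The sign thus turned for VEGFA (without sham replicate 3 or DAC replicate 6), NRP1 (without sham replicate 1 or 2, or DAC replicate 4 or 6) and FLT4 (without DAC replicate 6), and FLT4 per endothelial marker went from -0.18 to 0.39. The number of upregulated members was 0 to 2 and of downregulated members 0 to 2, and with each gene's own variance 0 were upregulated. Over all lists, 12 of the 112 genes tested were upregulated and 10 downregulated, against 3.25% and 5.27% of all genes tested. Of those 12 upregulated genes, 5 were among the 8 fibroblast markers. The 10 lists hold unlike genes, so the pooled counts are not a result about the VEGF and angiopoietin genes. The pooled counts were 9 to 14 upregulated and 7 to 12 downregulated with 1 sample left out, and 6 were downregulated with each gene's own variance. Of the 22 named list genes that were called, 13 kept the call in every alternative that could be run and 8 lost it with at least 1 sample left out (ANGPTL2, NOS3, HLX, EMCN, ROBO4, CNN1, RYR2 and ARNT). The cause of these changes was not tested. A minimum of 5 FPKM gave no value for FLT4, VEGFC or ANGPT2. No paired analysis was possible because the sham and DAC groups were different minipigs, which the paper says were assigned at random.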
